A study of Macaca mulatta with 8 samples.

Results

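Voltage-gated potassium channels open when a neuron depolarizes and let potassium leave the cell, which ends the action potential and sets how fast the neuron can fire again. Each channel is built from 4 alpha subunits. Subunits of families such as Kv1 (KCNA) and Kv3 (KCNC) form channels by themselves, whereas silent subunits such as those of the KCNS genes make no channel alone and change the gating of the subunits they join. In cortex, Kv1 channels are known mainly from axons and terminals, and Kv3 channels from neurons that fire fast. Described here are 5 such genes: KCNS1, which encodes a silent subunit, KCNA4, KCNA5 and KCNA6 of the Kv1 family, and KCNC4 of the Kv3 family. They were found by matching the RefSeq identifier of each probe, without its version, to a gene table of the rhesus macaque. They are 5 of the 835 genes that could be named in this way among 20217 probes, and each was represented by 1 probe: A_01_P018958 for KCNS1, A_01_P008990 for KCNA4, A_01_P016997 for KCNA5, A_01_P017295 for KCNA6 and A_01_P003641 for KCNC4.

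Total RNA was measured on single-colour Agilent arrays in 2 areas of the macaque neocortex, with 4 arrays per area numbered 1 to 4. One was the forelimb field of M1, the primary motor cortex, from which movements of the arm and hand are commanded. The other was A46, prefrontal association cortex on both banks of the principal sulcus. The tissue came from the left hemisphere of 4 adolescent rhesus monkeys aged 2.6 to 2.7 years, which had received no experimental treatment, had been given an overdose of pentobarbital and were perfused with cold heparinized saline. The question is which genes are expressed at unequal levels in M1 and A46. Since this is bulk tissue, fewer cells of a type and less RNA per cell cannot be told apart.

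Levels are log2 signals from which the 75th percentile of the same array was subtracted, so that a level of 0 equals that percentile, and differences are M1 minus A46. The 75th percentile lay between 1232 and 2008 scanner units, and on an array 71.4% to 77.3% of probes exceeded background clearly. The scans fell on 4 days: A46 replicate 2 with M1 replicates 2 and 3 on the earliest, both arrays numbered 1 on the next, both numbered 4 on the third, and A46 replicate 3 by itself on the last. The number of arrays limits the precision. Of 69 marker genes of cortical cell types, 6 could be matched to a probe, and none of the 25 general, excitatory and inhibitory neuron markers was among them, so that the neuronal identity of the tissue could not be checked by such markers.

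All 5 genes were well above background in both areas, on all 8 arrays and at both spots of each probe. KCNS1 gave a processed signal of 7207 to 21789 scanner units, KCNA4 of 347 to 822, KCNC4 of 125 to 347, KCNA6 of 63.3 to 211 and KCNA5 of 23.5 to 51.7. Array medians of the negative control spots were 1.11 to 4.90 units. The local background that had been subtracted was 32.0 to 38.0 units in the median over an array, so that the signal of KCNS1 was 229 to 597 times its own local background, while that of KCNA5 was 0.630 to 1.48 times it. Signals of different probes are not ranked here, because probes differ in brightness for one and the same gene: the 3 probes of KCNJ9, a subunit of G-protein-gated inward rectifier channels, had mean levels of 1.17, -0.46 and -2.84 in A46.

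**Figure D1:**
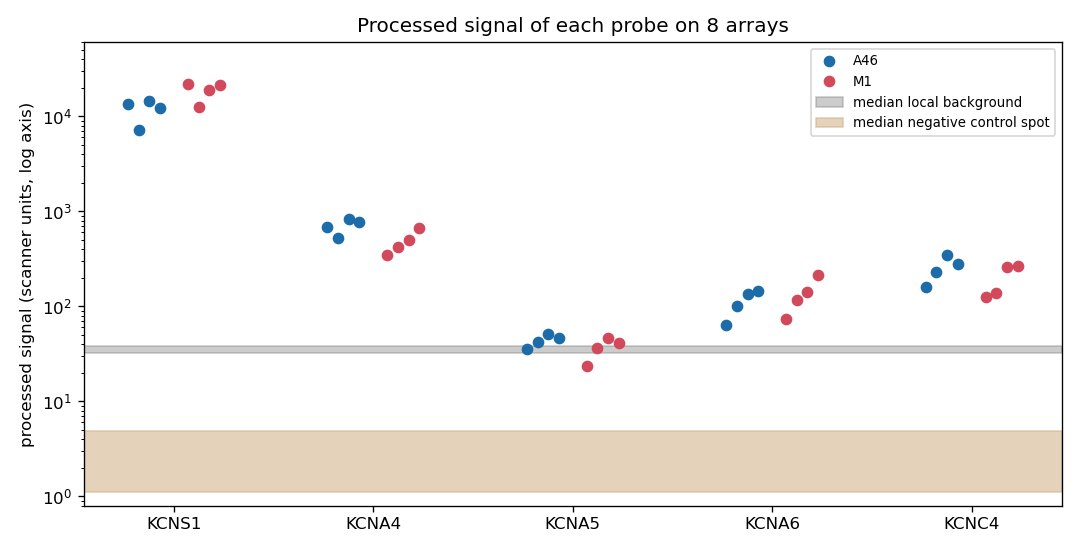
Processed signal of the 5 probes in scanner units on a log axis, with a point for each of the 4 A46 and 4 M1 arrays, numbered 1 to 4 from left to right. The grey band spans the array medians of the local background (32.0 to 38.0 units) and the tan band those of the negative control spots (1.11 to 4.90 units). KCNS1 lies far above both bands, and KCNA5 lies at the height of the local background but above the negative controls.

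KCNS1 was higher in M1 by 1.66-fold, a difference that passed the test once arrays of the same number were compared but not on area alone. KCNA4 was 1.41-fold higher in A46 on average and passed in neither of these fits. On average 2 of the 5 genes stood higher in M1 (KCNS1 and KCNA6) and 3 higher in A46 (KCNA4, KCNA5 and KCNC4). Fitted with area as the only term, 0 of the 5 passed an adjusted p of 0.05 in limma, where 0.184% of the 14698 tested probes passed, and 2 had an unadjusted p under 0.05 (KCNS1 and KCNA4), as 9.44% of all tested probes did. With the replicate number added to the fit as a block, 1 of the 5 passed (KCNS1), against 2.59% of all tested probes in either direction and 1.61% in the direction of higher expression in M1. At an unadjusted p under 0.05 the blocked fit held 4 of the 5, all except KCNA5, beside 21.3% of all tested probes. The 5 genes were chosen with earlier results of these data known, so setting them beside these shares is no test. The block compares the arrays of the same number. No label ties a number to an animal, and without the block the p-values measure the spread between the arrays of an area.

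**Figure D2:**
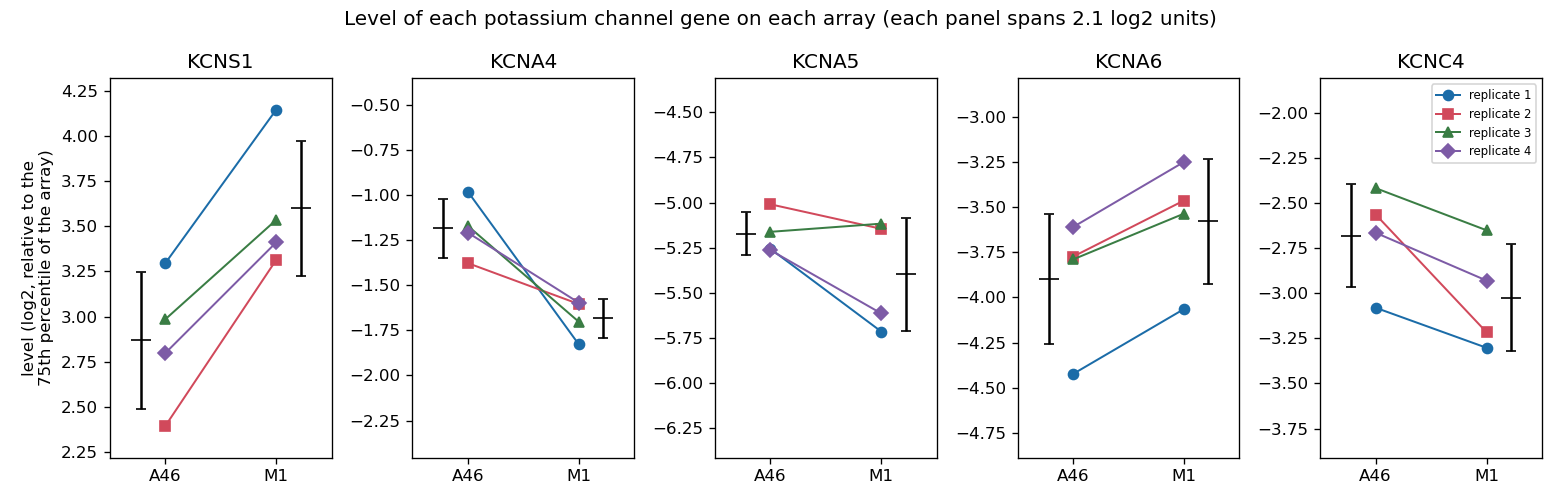
Level of each gene (log2 signal minus the 75th percentile of its array) on the 4 A46 and 4 M1 arrays. Lines join arrays of the same replicate number, black bars give the mean ± SD of an area, and every panel spans the same range of log2 units. All 4 lines rise for KCNS1 and KCNA6 and fall for KCNA4 and KCNC4, and for KCNA5 3 of 4 fall.

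KCNS1 encodes the silent subunit Kv9.1. In A46 its level was 3.29, 2.39, 2.98 and 2.80 on replicates 1 to 4, and in M1 it was 4.14, 3.31, 3.53 and 3.41. The areas did not overlap, but by the narrow margin of 0.02 between A46 replicate 1 and M1 replicate 2. Between the areas the means were 2.87 ± 0.38 (SD, n = 4) and 3.60 ± 0.37, a log2 difference of 0.73, or 1.66-fold. The SE was 0.24 in the fit on area alone (limma adjusted p = 0.341, 95% interval 0.18 to 1.28) and 0.10 with the replicate block (adjusted p = 0.0340, interval 0.49 to 0.98). The arrays numbered 1 were the highest of their area in both areas and those numbered 2 the lowest, and the block removes this shared spread. On the arrays of the same number M1 was higher by 0.85, 0.92, 0.55 and 0.61. The call with the block was lost when the pair numbered 1, 2 or 4 was left out (adjusted p = 0.177, 0.147 and 0.117, limma with the block), where 3, 0 and 2 probes of the whole array passed, and the difference then stood at 0.69, 0.67 and 0.77. Without the pair numbered 3 it passed (0.79, adjusted p = 0.0311).

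KCNA4 encodes Kv1.4, a rapidly inactivating Kv1 subunit that carries an A-type current. Its level in A46 was -0.98, -1.38, -1.17 and -1.21 on replicates 1 to 4, and in M1 it was -1.83, -1.60, -1.70 and -1.60. Every M1 array lay below every A46 array, with a gap of 0.22 between the nearest. The means were -1.19 ± 0.16 (SD, n = 4) in A46 and -1.68 ± 0.11 in M1, a log2 difference of -0.50, or 1.41-fold in favour of A46. It did not pass on area alone (SE 0.12, limma adjusted p = 0.191, 95% interval -0.78 to -0.22) nor with the replicate block (SE 0.12, adjusted p = 0.0950, interval -0.80 to -0.20). With the replicate number as a random block it passed (SE 0.10, limma adjusted p = 0.0248). That fit applies 1 correlation of 0.60 to all probes, whereas the same-numbered arrays of KCNA4 did not vary together. Its SE there rests in part on other probes. The arrays of the same number differed by -0.85, -0.23, -0.53 and -0.39. Here the arrays numbered 1 stood at opposite ends, the highest of A46 and the lowest of M1. The same-numbered differences had an SD of 0.26, where the median over all tested probes was 0.22.

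KCNA6 encodes Kv1.6, a Kv1 subunit that gives a sustained current and is found in neurons of the brain. In A46 its level was -4.42, -3.77, -3.79 and -3.61 on replicates 1 to 4. M1 gave -4.06, -3.46, -3.54 and -3.25. The areas overlapped widely, yet M1 was higher on all same-numbered arrays, by 0.36, 0.31, 0.25 and 0.36. The SD of these 4 differences was 0.05, where the median over all tested probes was 0.22, while the arrays within an area had an SD of 0.36 in A46 and 0.35 in M1. The log2 difference of 0.32 had an SE of 0.23 on area alone (limma adjusted p = 0.782, 95% interval -0.20 to 0.84) and of 0.08 with the replicate block (adjusted p = 0.0950, interval 0.13 to 0.51), and it passed in neither. Without the block its size moved with single arrays: the difference was 0.15 without A46 replicate 1, 0.48 without M1 replicate 1 and 0.21 without M1 replicate 4.

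The narrow range of KCNA6 over the pairs was not seen spot by spot. Each probe had 2 spots on an array, and the 2 spots of KCNA6 differed by 0.24 in the median, and by up to 0.46 on A46 replicate 1. Read from 1 spot at a time, the same-numbered differences of KCNA6 ran from 0.15 to 0.72 at one spot and from 0.0038 to 0.47 at the other. All of these single-spot values were above 0, but at the latter spot replicates 1 and 3 gave only 0.0038 and 0.0069. The means of the single-spot differences over the arrays were 0.43 and 0.21. The spread between spots was thus several times the spread between the 4 averaged pairs.

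**Figure D3:**
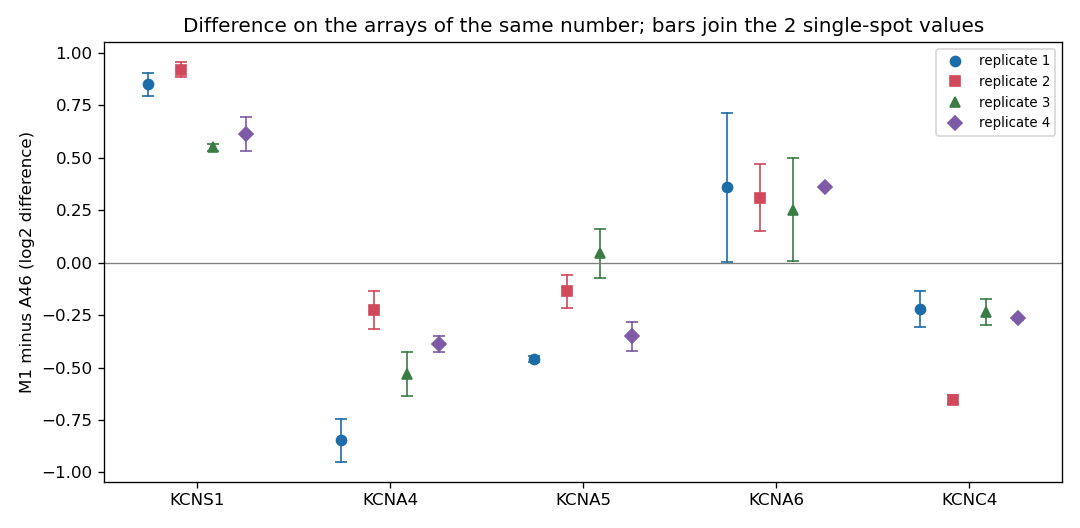
Difference between the areas (M1 minus A46, log2) on the arrays of the same replicate number. Symbols give the mean of both spots of a probe, and each vertical bar runs between the values from its 2 spots read one at a time. KCNS1 lies between 0.55 and 0.92 with short bars, and the bar of KCNA5 at replicate 3 crosses 0. KCNA6 lies between 0.25 and 0.36 with long bars except at replicate 4, where the bar is short.

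KCNC4 encodes Kv3.4, a Kv3 subunit that opens at strong depolarization and, unlike most of its family, inactivates fast. In A46 its level was -3.08, -2.56, -2.42 and -2.67 on replicates 1 to 4, against -3.30, -3.22, -2.65 and -2.93 in M1. The areas overlapped, and in each of them the array numbered 1 was the lowest and the one numbered 3 the highest. M1 was lower on all same-numbered arrays, by -0.22, -0.65, -0.23 and -0.26, and the pair numbered 2 lay apart from the other three. The log2 difference was -0.34, with an SE of 0.19 on area alone (limma adjusted p = 0.685, 95% interval -0.79 to 0.10) and of 0.11 with the replicate block (adjusted p = 0.149, interval -0.61 to -0.08). It passed in neither. Without the pair numbered 2 the blocked difference was -0.24 (adjusted p = 0.326).

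KCNA5 encodes Kv1.5, a Kv1 subunit best known for the repolarizing current of the heart atrium. It stood at -5.26, -5.01, -5.16 and -5.26 on replicates 1 to 4 of A46 and at -5.71, -5.15, -5.12 and -5.61 in M1. The A46 arrays lay close together (SD 0.12), and the M1 arrays fell into a higher pair, replicates 2 and 3, that lay within the range of A46, and a lower pair, replicates 1 and 4, that lay below it. Over the same-numbered arrays the difference was -0.46, -0.14, 0.05 and -0.35. The log2 difference of -0.22 did not pass on area alone (SE 0.17, limma adjusted p = 0.802, 95% interval -0.61 to 0.16) or with the replicate block (SE 0.11, adjusted p = 0.308, interval -0.50 to 0.05). Since these intervals reach from -0.61 and -0.50 to just above 0, the 2 areas are not shown to be alike in KCNA5. The difference was -0.12 without M1 replicate 1, -0.11 with array weights and -0.15 with the block but without the pair numbered 1. It was -0.06 (limma adjusted p = 0.982) after a normexp correction of the median spot signals with an offset of 50 units, which also leaves out the detrending within the array.

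**Figure D4:**
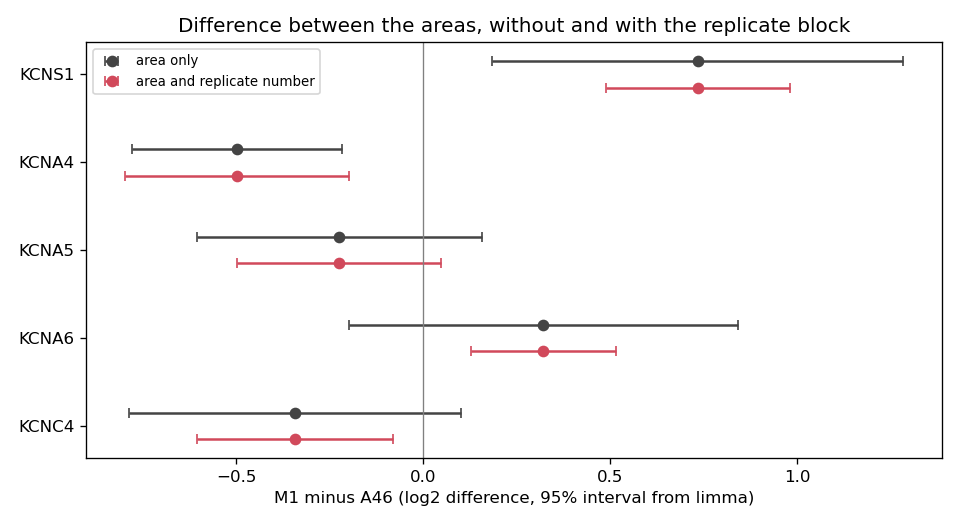
Difference between the areas (M1 minus A46, log2) with its 95% interval from limma, fitted on area alone (grey) and with the replicate number as a block (red). With the block the intervals of KCNS1, KCNA5, KCNA6 and KCNC4 become narrower, and that of KCNA4 does not.

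The replicate block changed the precision of the genes unequally. It brought the SE of KCNA6 from 0.23 to 0.08 and that of KCNS1 from 0.24 to 0.10, while the SE of KCNA4 was 0.12 in both fits. In limma each SE draws in part on the variance of the other tested probes. The SE of KCNA6 with the block is thus not that of its own 4 pairs alone. KCNS1 and KCNA6 varied among the arrays of an area by more than the median tested probe (SD 0.26 in A46 and 0.25 in M1), and same-numbered arrays varied together. In KCNA4 the arrays of an area varied less than that median. Its same-numbered differences had an SD of 0.26, above the median of 0.22 for such differences over all tested probes. Of the 5 genes, 4 kept 1 sign over the 4 pairs, where 33.3% of the 14683 tested probes measured on every array did. No overlap between the areas was seen in 2 of the 5, KCNS1 and KCNA4, against 6.46% of these probes. Because the 5 genes were chosen with earlier results known, both shares are given for scale only.

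Values within a scan day had the same sign as the means in all 5 genes. On the earliest day, with M1 replicates 2 and 3 against A46 replicate 2, the difference was 1.03 for KCNS1, -0.28 for KCNA4, -0.12 for KCNA5, 0.27 for KCNA6 and -0.37 for KCNC4. The other days with both areas held the pairs numbered 1 and 4, whose values are given above, and the arrays numbered 1 also shared a slide. A46 replicate 3 was the only array of its day. A fixed block for scan day let KCNS1 pass (log2 difference 0.85 ± 0.12 SE, limma adjusted p = 0.0478), while the other 4 did not pass (adjusted p from 0.120 to 0.352). As a random block, the scan day let KCNS1 and KCNA4 pass (0.83 and -0.48, limma adjusted p = 0.0125 and 0.0359). That fit also applied 1 correlation of 0.68 to all probes. Scan day and replicate number nearly coincide, so these fits largely repeat the replicate block. On the 3 arrays of the 2 later days KCNA6 stood at -3.79 and -3.61 in A46 and at -3.25 in M1, against -4.42 and -3.77 and against -4.06 to -3.46 on the earlier arrays. The part of the scan day in the levels was not tested beyond these values.

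The 2 spots of KCNS1 differed by 0.05 in the median after processing, and by at most 0.16, on M1 replicate 1. Before the detrending within the array the background-subtracted spots differed by 0.26 in the median and by 0.95 on that array. The normexp values, which were made from the median spot signals without this detrending, gave KCNS1 a difference of 0.66 (limma adjusted p = 0.334, and 0.0202 with the replicate block). Its differences from single spots were 0.73 and 0.74. Read at single spots, KCNA4 gave -0.53 and -0.47, KCNC4 -0.34 and -0.35, and KCNA5 -0.23 and -0.22.

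Few other ion channel genes could be read. Of 173 genes in 9 lists of potassium, sodium, calcium, HCN and chloride channels and their partners, 11 had a named probe and 9 were tested, the 5 described above among them. Of the other 4, 0 passed in either limma fit, and over the 9 the median log2 difference was -0.05, beside -0.01 over all tested probes. The lists of the KCNQ, KCNH and calcium- or sodium-activated potassium channels and of the voltage-gated sodium channels had no named probe.

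Closest to passing among the other channel genes was KCNE5, an accessory subunit with a single membrane span that modulates KCNQ and other potassium channels. Its level in A46 was -4.75, -4.54, -3.86 and -3.88 on replicates 1 to 4, and in M1 -3.33, -2.82, -3.77 and -3.21. The areas did not overlap, as in 6.46% of the tested probes measured on every array, and the nearest values were on the arrays numbered 3. The log2 difference was 0.97 ± 0.27 SE and did not pass (limma adjusted p = 0.247, and 0.124 with the replicate block). CLCN5, a chloride and proton exchanger of endosomes, had a mean level of -5.96 ± 0.09 (SD, n = 4) for A46 against -5.61 ± 0.19 for M1, without overlap (log2 difference 0.34, limma adjusted p = 0.424, and 0.177 with the block). The brightest of the 3 KCNJ9 probes differed by -0.08 and the other two by -0.05 and -0.18, none of which passed. KCNK16, a two-pore potassium channel, was well above background on 0 of 8 arrays, and CACNG1, a calcium channel subunit of skeletal muscle, on 3 of the A46 and 2 of the M1 arrays, and neither was tested.

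Of the 6 matched cell type markers, 2 passed with the replicate block, beside 2.59% of all tested probes. The marker lists, too, were chosen with earlier results of these data known. Of 11 oligodendrocyte markers 2 were matched, UGT8 and TSPAN2, and their summed linear level was 0.0835 to 0.118 of the 75th percentile in A46 and 0.231 to 0.482 in M1, without overlap. UGT8, an enzyme of myelin lipid synthesis, passed with the replicate block (log2 difference 1.64, limma adjusted p = 0.0287, and 0.0624 without it). TSPAN2, a tetraspanin of oligodendrocytes, passed in neither fit (log2 difference 0.38, limma adjusted p = 0.287, and 0.111 with the block). UGT8 makes up most of the sum, with mean levels of -3.60 in A46 and -1.96 in M1, where TSPAN2 had -5.59 and -5.21. Of 7 endothelial and mural markers 1 was matched, ACKR1, a chemokine-binding receptor of venules, whose linear level was 2.25 to 3.81 in A46 and 1.52 to 2.91 in M1 (log2 difference -0.66, adjusted p = 0.0473 with the block, and 0.430 without it). Single matched genes of the lists for layer 5 neurons (S100A10, -0.06), astrocytes (FGFR3, -0.05) and blood (HBE1, -0.07) did not pass in either limma fit (adjusted p from 0.793 to 0.979). HBE1 lay at mean levels of -5.98 in A46 and -6.06 in M1, and the blood content of the tissue cannot be read from this 1 gene. All 6 matched markers were well above background on all 8 arrays. The part of the cell makeup in the differences of the potassium channel genes was not tested.

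Profiles over the 8 arrays were also compared with 506 other named genes that were well above background on every array and measured on each, by the root mean square gap between profiles after centring each on its own mean. Nearest to KCNS1 was EFNA1, a ligand of Eph receptors, with a gap of 0.23 where KCNS1 itself varied by 0.49 around its mean, followed by B2M, the light chain of MHC class I, at 0.25 and the class I gene MAMU-E at 0.26. EFNA1, B2M and MAMU-E stood higher in M1 by 0.59, 0.41 and 0.62, and none of them passed in either limma fit (adjusted p from 0.338 to 0.700, and from 0.0632 to 0.118 with the replicate block). Nearest to KCNA4, which varied by 0.28, were SPC24 of the kinetochore (0.14), VPS37B of the ESCRT machinery (0.14) and the exoribonuclease gene XRN1 (0.14). For KCNA6, which varied by 0.35, they were TMEM121B (0.15), PFKFB3, a regulator of glycolysis (0.17), and IDI1 of isoprenoid synthesis (0.17). IDI1 alone among these neighbours passed with the replicate block (0.49, limma adjusted p = 0.0486, and 0.577 without it). KCNC4 varied by 0.30 and lay nearest to EPHX4 (0.13), TERF1 of the telomeres (0.15) and SUDS3 of a histone deacetylase complex (0.16). KCNA5 varied by 0.23 and lay nearest to SMARCD1, a chromatin remodelling subunit (0.10), PROM1 (0.10) and MTMR7 (0.12). These gaps include the difference between the areas, so that a near gene tends to share its direction by selection. They also include the spread between replicate numbers and scan days that all probes of an array share.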

How the data were processed

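The files hold 8 single-colour (Cy3) arrays. Per the file headers, Agilent Feature Extraction 10.7.3.1 read them, with a probe design based on the rheMac2 build. The processed intensity in the deposited scanner files is linear, in scanner units. Per the file headers, local background had been subtracted and spatial trends removed array by array, with no scaling across arrays. The authors' deposited series table holds log2 values, and differences between columns ran along those of the scanner files with a slope of 1.00 and a median gap of at most 0.0091 log2 units, so scale and direction are known, while the centring of each probe stays unknown (column medians -0.06 to 0.09).

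Control spots (1417 of 41851 per array) and outlier spots (0 to 220) were left out, and no spot was saturated. Log2 intensities of the 2 spots of each probe were averaged and scaled by subtracting the array's 75th percentile. A probe was tested (14698 in all) where all 4 arrays of M1 or of A46 had it well above background, with limma 3.58.1 in R 4.3.3 (lmFit, eBayes, area as the only term), with Benjamini-Hochberg adjustment over all of them at 0.05. Python 3.11.15 and pandas 2.3.3 were used for tables. The fits were checked on data with known changes. The median SE of a difference was 0.18, and 0.11 with the block.

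Symbols, and nothing else, were taken from the RefSeq gene table for T2T-MMU8v2.0, and 942 of 20217 probes (4.66%) matched 1 symbol. Coordinates and sequences are not given, since the assemblies differ and no sequence table was used here.

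The labels name 4 animals and no animal for any array. The replicate numbers were taken as pairs because deviations from the area mean, across 14683 probes that are not independent, correlated between same-numbered arrays (Pearson's r = 0.726 for number 1, 0.634 for 2, 0.169 for 3 and 0.858 for 4), always above 0.1. Unlike numbers also reached 0.481 (A46 replicate 3 with M1 replicate 4) and 0.259 (A46 replicate 2 with M1 replicate 3). Both arrays numbered 3 thus correlated more with an array of another number than with each other. The pairing rests on this check alone, and for number 3 the check does not single out the pair. The arrays numbered 1, 2 and 4 shared a scan day within their pair, and those numbered 3 did not. The check therefore cannot tell a shared animal from a shared scan day.

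The members and gene lists were chosen with earlier results of these data known. Named are the 5 genes, list genes that passed in the fit with or without the block, the gene with the smallest p of each list, and for each of the 5 the 3 named genes with the nearest profile. TSPAN2, KCNK16 and CACNG1 are named besides, after the values were seen. Alternatives were other background corrections, scalings and filters, the deposited values, blocks, array weights, an intensity trend, single spots, and leaving out arrays or pairs. Normexp used median spot signals. Mean spot signals were not used here.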

Additional observations from a re-analysis of the deposited data

How the results depend on the processing

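The replicate block, the filters on dim probes and the intensity trend leave the differences of these 5 genes unchanged and alter only SE and p. The direction of all 5 differences was the same in all 28 alternative fits, some of which could thus not change it. Over them KCNS1 ran from 0.55 to 0.88 (adjusted p 0.0125 to 0.607), KCNA4 from -0.59 to -0.38 (0.0248 to 0.428), KCNA5 from -0.32 to -0.06 (0.138 to 0.988), KCNA6 from 0.15 to 0.48 (0.0950 to 1.00) and KCNC4 from -0.48 to -0.24 (0.124 to 1.00). KCNA5, KCNA6 and KCNC4 passed in none of them. KCNS1 passed in 8: with the replicate block (0.73), also as a random block (0.73), with normexp (0.66), quantile normalization (0.78) or the deposited values (0.73) beside the block, without the pair of replicate 3 (0.79), and with the scan day as a fixed (0.85) or random block (0.83). KCNA4 passed with the replicate number (-0.50) or the scan day (-0.48) as a random block, where 1 correlation is applied to all probes. The count of probes past the threshold was 27 on area alone, 380 with the replicate block and 984 with it as a random block. It was 487, 386 and 385 with the block beside normexp, quantile normalization and the deposited values, and 41 with normexp alone. It was 153 and 715 with the scan day as a fixed or random block, 144 with array weights, 45 with an intensity trend and 0 when dim probes were kept (1371 at an unadjusted limma p under 0.05). Leaving out 1 array gave 0 to 6, with 974 to 1799 at an unadjusted p under 0.05. With the block it was 3, 0 and 2 without the pair of replicate 1, 2 or 4, and 403 without that of replicate 3. Fewer arrays enter these fits, and otherwise the cause was not tested. The level of each gene in each area moved by less than 1 SD between arrays when read from either spot by itself (20 of 20). As that level is the mean of the same 2 spots, these readings are no independent check of it. In the 10 sets of 4 levels, 1 gene in 1 area, no array lay far from the other three by Dixon's test. Precision is limited by 4 arrays per area.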
